A study of Homo sapiens with 6 samples.

Results

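The 38 genes described here encode sensors of foreign or misplaced RNA, signalling factors that act upstream or downstream of interferon, and proteins whose genes interferon induces. They were taken by symbol from a list, through GENCODE release 29 gene IDs, out of 58780 human genes in the tables, and 36 of them had enough reads to be tested. The RNA came from HCT116, a human colorectal carcinoma cell line, in 3 libraries made 16 h after auxin was added and 3 from control cultures with DMSO, its solvent. Auxin, a plant hormone, serves to degrade proteins that have been fused to a degron, but the labels name neither such a protein nor a clone. The labels call the libraries of a group biological replicates, and the title of the series places the work among studies of the nuclear bodies called speckles.

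Cells detect double-stranded RNA in the cytosol with helicases of the RIG-I family, which pass the signal through the mitochondrial adaptor MAVS and the kinase TBK1 to the transcription factors IRF3 and IRF7. These switch on interferon genes. Secreted interferon binds its receptor, and the kinases JAK1 and TYK2 then activate factors of the STAT family, of which STAT2 works with IRF9 in the complex ISGF3. That complex binds the interferon-stimulated response element (ISRE) near the start of interferon-stimulated genes, while interferon gamma acts through a second element, GAS. The products include enzymes that act on double-stranded RNA and proteins that restrict viruses, and many epithelial cells keep a low level of them without infection.

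Both elements were searched for on both strands in 300-base windows around gene starts from RefSeq (GRCh38.p14), from 250 bases before the start, with the start counted as 0. The ISRE core was taken as GAAANNGAAA or its reverse complement TTTCNNTTTC, and the GAS core as the palindrome TTCNNNGAA. Windows of 29 of the 38 genes were found, 1 of them (DDX58) under its current symbol RIGI. DHX58, IRF3, IRF7, OAS2, OASL, IFIT2, IFITM2, MX2 and USP18 were not matched. The ISRE core was present in 18 of the 29 windows and in 3.58% of the 34961 windows of the table outside chromosome Y. The GAS core was present in 8 of 29 against 7.66% of all windows. The stretches shown lie within the 250 bases before the RefSeq start and hold no annotated exon, and capitals mark matches. They were chosen to set ISG15 and IFIT1, which carry ISRE cores and were not called, beside IFIT3 and OAS3, which carry them and were lower after auxin, and IRF1 and STAT2, which were lower and have no ISRE core in the window.

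ISG15, chr1:1013247-1013422, plus strand: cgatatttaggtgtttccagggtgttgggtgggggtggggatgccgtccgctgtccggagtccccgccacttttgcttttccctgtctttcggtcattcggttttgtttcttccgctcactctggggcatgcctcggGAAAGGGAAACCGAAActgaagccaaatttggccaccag
IFIT1, chr10:89392373-89392545, plus strand: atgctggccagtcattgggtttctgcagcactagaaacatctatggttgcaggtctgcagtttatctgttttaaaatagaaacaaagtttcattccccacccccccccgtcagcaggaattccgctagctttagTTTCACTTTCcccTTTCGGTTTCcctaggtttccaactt
IFIT3, chr10:89327747-89327893, plus strand: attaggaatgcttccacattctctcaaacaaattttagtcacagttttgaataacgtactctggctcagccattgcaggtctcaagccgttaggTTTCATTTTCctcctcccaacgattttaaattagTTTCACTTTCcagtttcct
OAS3, chr12:112938224-112938351, plus strand: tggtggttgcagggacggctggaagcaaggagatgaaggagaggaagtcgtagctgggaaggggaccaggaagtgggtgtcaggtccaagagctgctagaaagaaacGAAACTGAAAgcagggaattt
IRF1, chr5:132490799-132491023, minus strand: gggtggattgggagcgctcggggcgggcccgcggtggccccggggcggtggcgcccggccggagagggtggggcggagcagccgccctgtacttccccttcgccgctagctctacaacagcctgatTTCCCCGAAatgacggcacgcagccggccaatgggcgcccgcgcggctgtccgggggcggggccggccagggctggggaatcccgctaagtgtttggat
STAT2, chr12:56360156-56360357, minus strand: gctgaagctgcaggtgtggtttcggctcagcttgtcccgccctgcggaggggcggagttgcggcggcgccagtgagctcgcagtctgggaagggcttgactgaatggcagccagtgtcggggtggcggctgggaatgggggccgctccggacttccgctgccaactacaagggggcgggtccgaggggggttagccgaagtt

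In ISG15, a ubiquitin-like protein gene whose GENCODE entry starts 12359 bases further upstream, the ISRE cores overlap and start at -113 and -107. The cores of IFIT1 start at -116 and -103 and those of IFIT3 at -156 and -122. OAS3 has a core at -143 in the printed stretch and another at -12. The only match in the IRF1 window is the GAS core at -124, and the STAT2 window holds neither element.

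Depth and identity of the libraries bear on every value below. Total expected counts, which are estimated read numbers, were 234037969 to 625895062 per library, and replicate 1 was the deepest of both groups. Epithelial markers were expressed throughout: the summed TPM (a level scaled by transcript length and to the same total in every library) of 12 epithelial markers was 1828 to 2495 in DMSO and 2239 to 2686 after auxin, with CDX1 at 0 and VIL1 and CDH17 near 0 in both. CLDN7, a claudin gene, fell by 3.62 on the log2 scale (edgeR adjusted p 1.5e-06), while EPCAM, CDH1, CDX2 and the keratin genes KRT8, KRT18, KRT19 and KRT20 were called higher, by 0.29 to 0.64. Of 14 markers of blood, stromal and endothelial cells, 12 or 13 were under 1 TPM in each library. Their sum was 41.4 to 69.2 TPM in DMSO and 11.9 to 21.3 TPM after auxin and came mostly from CD68. CD68 itself had a log2 change of -1.65 (edgeR adjusted p 9.65e-06), and PTPRC, which defines blood cells, had a mean of 0.00178 CPM in DMSO libraries and 0.00941 CPM in auxin libraries. The part of these markers in the results below was not tested. In bulk RNA, fewer cells with a transcript and less of it per cell cannot be told apart.

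Most of the genes were expressed at low or moderate levels in both groups. In DMSO, 13 of the 38 had a mean under 1 TPM, 15 had 1 to 10 TPM, 7 had 10 to 100 TPM and 3 had more. The highest were IFITM3 at 273 ± 58 TPM, IFITM2 at 129 ± 40 TPM and ADAR at 103 ± 29 TPM (± SD, n = 3 per group). The ranges of the last 2 overlapped, but within every library of both groups IFITM2 was above ADAR. ISG15 followed at 61.6 ± 13.2 TPM and EIF2AK2 at 43.0 ± 6.3 TPM (± SD, n = 3 per group). After auxin the order of the first 4 was the same, with IFITM3 at 253 ± 41, IFITM2 at 129 ± 27, ADAR at 109 ± 15 and ISG15 at 57.2 ± 6.3 TPM (± SD, n = 3 per group).

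After auxin, 16 of the 36 tested genes were lower and 4 were higher at a Benjamini-Hochberg adjusted p under 0.05 in the quasi-likelihood test of edgeR. All 5 signalling factors (IRF1, IRF3, IRF7, IRF9 and STAT2) fell by more than 2-fold, as did OAS3, IFIT3, IFI35 and MX1. Of the 4 genes with the most RNA per length, IFITM3, IFITM2 and ISG15 were not called, and ADAR rose by 1.22-fold. Calls in either direction covered 55.6% of the tested genes on the list and 52.3% of all 19725 genes tested, so the share called is near that of any gene. The split differed: 44.4% were lower against a background of 26.9%, and 11.1% were higher against 25.4%. Decreases of at least 2-fold made up 25.0%, or 9 genes, against 13.3%, and increases of at least 2-fold 5.56%, or 2 genes, against 6.55%.

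The median log2 fold change of the 36 genes was -0.14, beside 0.02 over all genes tested. The normalized counts of the 2 groups (CPM, counts scaled to a common library size with TMM factors) did not overlap in 23 of the 36, 16 of them lower and 7 higher, which is 63.9% beside 60.3% of all genes (30.4% lower and 30.0% higher). The numbers of calls moved with the model. With the replicate number as a block, 8 genes were higher and 18 lower (35.5% and 34.4% of all genes in that fit), the additions being OAS1, OASL, IFI6 and IFITM2 as higher and TBK1 and IFIT2 as lower. With upper-quartile factors, which shift the median gene by 0.12 on the log2 scale, 11 were higher and 12 lower (33.1% and 22.4% of all genes), so that the higher genes made up 47.8% of the calls instead of 20.0%. With limma-trend on log2(TPM + 1), which shifts the median gene by -0.14, 0 were higher and 9 lower (1 and 14 at an unadjusted p under 0.05), beside 4.92% and 15.0% of all genes. The DESeq2 Wald test gave 6 and 16, beside 26.0% and 27.6% of all genes. No gene on the list was called in the opposite direction in any of the 15 alternatives.

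**Figure D1:**
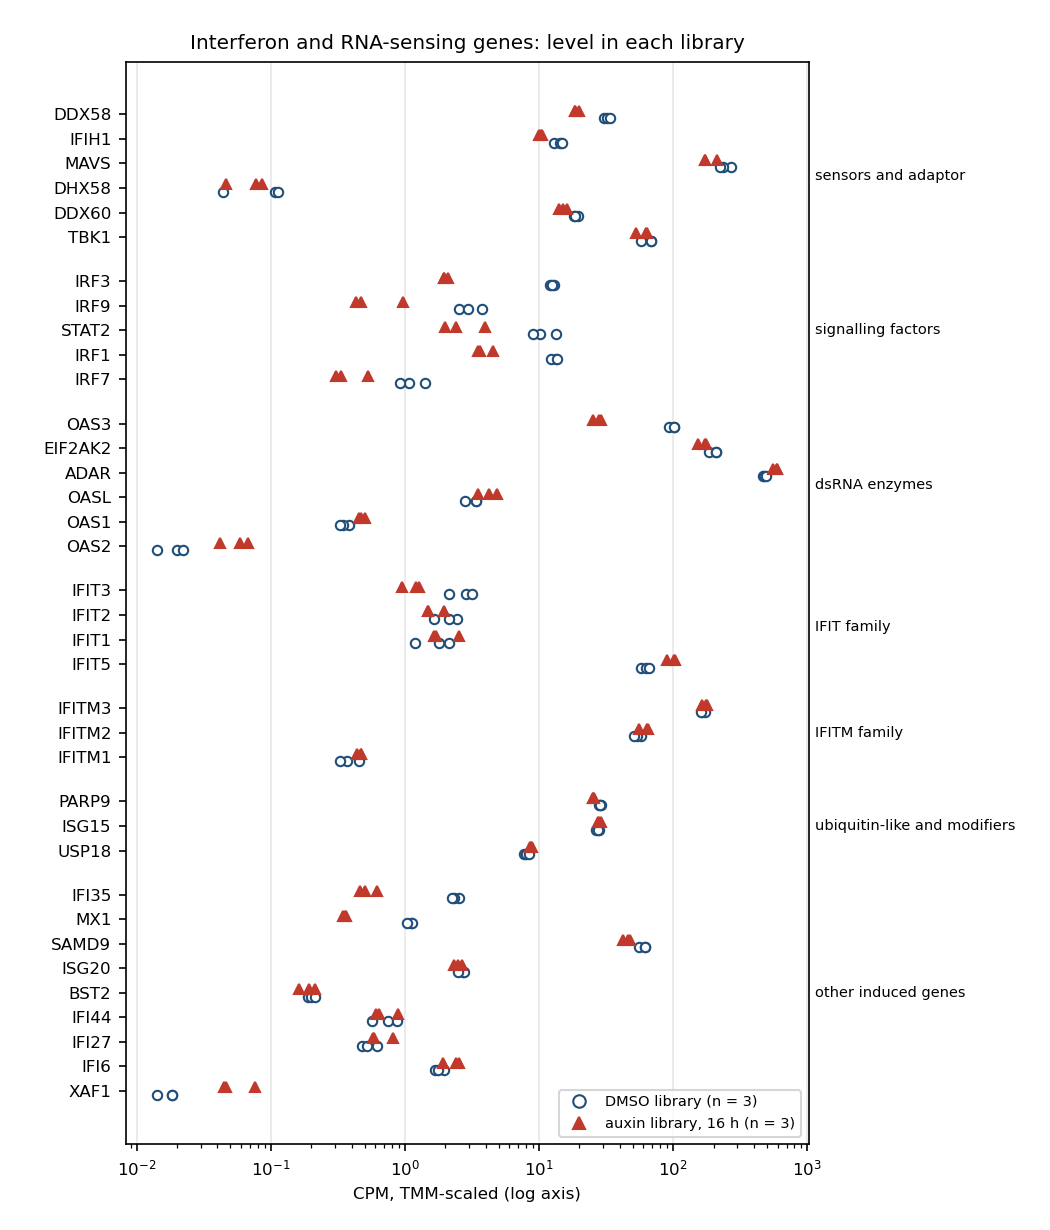
Level of each tested gene in every library, in CPM scaled with TMM factors on a log axis, with genes grouped by role, open circles for the 3 DMSO libraries and filled triangles for the 3 auxin libraries. The triangles of all 5 signalling factors lie to the left of the circles, those of ADAR and IFIT5 to the right, and those of the IFITM genes among them.

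The cytosolic sensors DDX58 and IFIH1 were lower by less than 2-fold, and DHX58 was not called. DDX58 encodes RIG-I, which recognises RNA ends that carry a triphosphate, and lies at chr9:32455705-32526324 (GRCh38, minus strand, ENSG00000107201.9). It was at 30.4, 32.4 and 33.9 CPM in DMSO replicates 1 to 3 and at 18.4, 19.8 and 18.5 CPM after auxin. Every auxin library was below every DMSO library, and the log2 fold change was -0.77 (SE 0.07, adjusted p 9.53e-05). DDX58 kept its call in all 15 alternatives, with a log2 fold change from -0.91 to -0.65.

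IFIH1 encodes MDA5, the sensor of long double-stranded RNA, at chr2:162267079-162318703 (minus strand, ENSG00000115267.6). It had 13.0, 14.4 and 14.9 CPM in DMSO libraries and 9.94, 10.6 and 10.4 CPM in auxin libraries, with no overlap. The change was -0.45 on the log2 scale (SE 0.08, adjusted p 0.00284), and the call was lost on the TPM scale (adjusted p 0.0902 with limma-trend on log2(TPM + 1)). DHX58, which encodes the regulatory helicase LGP2 (chr17:42101404-42112733, minus strand, ENSG00000108771.12), was at a low level, with 11 to 65 counts per library. It had 0.108, 0.113 and 0.0442 CPM in DMSO libraries and 0.0774, 0.0460 and 0.0858 CPM in auxin libraries. Its groups overlapped and it was not called (log2 fold change -0.35, SE 0.42, adjusted p 0.519).

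MAVS encodes the adaptor on mitochondria to which both sensors signal and lies at chr20:3846799-3876123 (plus strand, ENSG00000088888.17). It was at 271, 234 and 223 CPM in DMSO libraries and at 211, 173 and 173 CPM in auxin libraries. All 3 auxin values were below the DMSO range, by -0.39 on the log2 scale (SE 0.11, adjusted p 0.0212). The call for MAVS was lost without auxin replicate 2 (adjusted p 0.0767) and without auxin replicate 3 (adjusted p 0.0793), with upper-quartile factors (adjusted p 0.117) and on the TPM scale (adjusted p 0.224 with limma-trend on log2(TPM + 1)).

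DDX60, a helicase gene described as an aid to RIG-I signalling, changed by -0.31 (SE 0.08, adjusted p 0.0128), from 18.8 ± 0.8 to 15.2 ± 1.1 CPM (± SD, n = 3 per group). Its call was lost without auxin replicate 3 (adjusted p 0.0555), with upper-quartile factors (adjusted p 0.0848) and on the TPM scale (adjusted p 0.247 with limma-trend on log2(TPM + 1)). TBK1, the kinase that phosphorylates IRF3, was at 64.6 ± 6.5 CPM in DMSO libraries and 59.9 ± 5.9 CPM in auxin libraries (± SD, n = 3 per group), with overlapping groups (log2 fold change -0.11, SE 0.10, adjusted p 0.402). TBK1 was lower in 3 of 3 same-numbered pairs, and the block on replicate number gave an adjusted p of 0.0063 at the same fold change.

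The signalling factors fell together. All 5 were lower without overlap of the groups and were called lower by more than 2-fold, beside 30.4% and 13.3% of all genes. Their log2 fold changes ran from -2.64 to -1.53 with a median of -1.95. IRF3 encodes the factor that TBK1 activates and lies at chr19:49659569-49665875 (minus strand, ENSG00000126456.15). It was at 12.1, 12.9 and 12.5 CPM in DMSO libraries and at 2.09, 1.96 and 1.96 CPM in auxin libraries. The auxin libraries thus held 16.0% of the DMSO level with little spread in either group (log2 fold change -2.64, SE 0.09, adjusted p 2.16e-06). IRF3 shares 734 bases with BCL2L12 on the opposite strand. BCL2L12 had a log2 change of -2.52, and whether counting used the strand is not given in the sources used here, so part of each count is uncertain.

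IRF9, the DNA-binding subunit of ISGF3, lies at chr14:24161053-24166565 (plus strand, ENSG00000213928.8). It had 2.54, 3.75 and 2.93 CPM in DMSO libraries and 0.969, 0.473 and 0.429 CPM in auxin libraries. The highest auxin value, in replicate 1, was still below the lowest DMSO value, and the log2 fold change was -2.28 (SE 0.34, adjusted p 0.00114). All 5513 bases of IRF9 also belong to the annotated gene AL136295.5 on the same strand, which had a log2 change of -2.38. How reads were split between these entries is reflected in the posterior SD, which reached 5.39% of the IRF9 count.

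STAT2, the subunit of ISGF3 that activates transcription, lies at chr12:56341597-56360155 (minus strand, ENSG00000170581.13). It was at 13.4, 10.1 and 8.99 CPM in DMSO libraries and at 3.97, 1.99 and 2.42 CPM in auxin libraries. Replicate 1 was the highest library of both groups, and the groups did not overlap (log2 fold change -1.95, SE 0.28, adjusted p 0.00098). On the TPM scale the call was lost, with an adjusted p of 0.0975 for limma-trend on log2(TPM + 1) and 0.0730 with a pseudocount of 0.1.

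IRF1, a factor that interferon gamma induces and that binds ISRE-like sites, lies at chr5:132481609-132490798 (minus strand, ENSG00000125347.13). It was at 13.5, 12.3 and 13.7 CPM in DMSO libraries and at 4.57, 3.65 and 3.49 CPM in auxin libraries. The auxin group held 29.7% of the DMSO level (log2 fold change -1.75, SE 0.12, adjusted p 3.66e-05). IRF1 is overlapped over its whole length by AC116366.3 on the opposite strand, which moved the other way (0.56 on the log2 scale). IRF7, which amplifies interferon production, was at 1.14 ± 0.25 CPM in DMSO libraries and 0.391 ± 0.123 CPM in auxin libraries (± SD, n = 3 per group). Its log2 fold change was -1.53 (SE 0.27, adjusted p 0.00258), and on the TPM scale its adjusted p was 0.0927 with log2(TPM + 1).

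Enzymes that bind double-stranded RNA included 2 of 6 higher and 2 lower, beside the 25.4% and 26.9% of all genes. OAS3 encodes the oligoadenylate synthetase that activates RNase L on long double-stranded RNA and lies at chr12:112938352-112973249 (plus strand, ENSG00000111331.12). It was at 101, 93.4 and 101 CPM in DMSO libraries and at 28.1, 25.2 and 29.1 CPM in auxin libraries, so that every auxin library was far below every DMSO library. The log2 fold change was -1.85 (SE 0.07, adjusted p 3.87e-06), and OAS3 kept its call in all 15 alternatives.

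EIF2AK2 encodes PKR, the kinase that stops translation when it binds double-stranded RNA, at chr2:37099210-37157065 (minus strand, ENSG00000055332.17). It was at 186, 208 and 208 CPM in DMSO libraries and at 152, 175 and 173 CPM in auxin libraries, separate but close groups. The change of -0.27 (SE 0.08, adjusted p 0.0265) lost its call without DMSO replicate 2, DMSO replicate 3, auxin replicate 1 or auxin replicate 3, with adjusted p from 0.0555 to 0.0788, and with upper-quartile factors (0.0823).

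ADAR, the enzyme that edits adenosine to inosine in double-stranded RNA, rose from 477 ± 12 to 585 ± 22 CPM (± SD, n = 3 per group). Its log2 fold change was 0.29 (SE 0.06, adjusted p 0.00581), higher in 3 of 3 pairs, but on the TPM scale it was 0.10 with an adjusted p of 0.781 (limma-trend on log2(TPM + 1)). OAS2 rose by 1.56 on the log2 scale (SE 0.36, adjusted p 0.00875) from very few reads, at 0.0187 ± 0.0041 CPM in DMSO libraries and 0.0561 ± 0.0131 CPM in auxin libraries (± SD, n = 3 per group). OAS2 had 4 to 12 counts per DMSO library and 10 to 38 per auxin library, close to the 3 counts that a count of 0 allows, and its call was lost on the TPM scale.

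OAS1 and OASL, the other synthetase-family genes, did not pass the test. OAS1 was at 0.353 ± 0.028 and 0.475 ± 0.026 CPM (± SD, n = 3 per group), a log2 change of 0.43 (SE 0.15, adjusted p 0.0524), and OASL at 3.20 ± 0.35 and 4.20 ± 0.65 CPM (± SD, n = 3 per group), a log2 change of 0.39 (SE 0.15, adjusted p 0.0631). Neither pair of groups overlapped. The block on replicate number gave adjusted p-values of 0.024 for OAS1 and 0.00176 for OASL, both as higher.

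**Figure D2:**
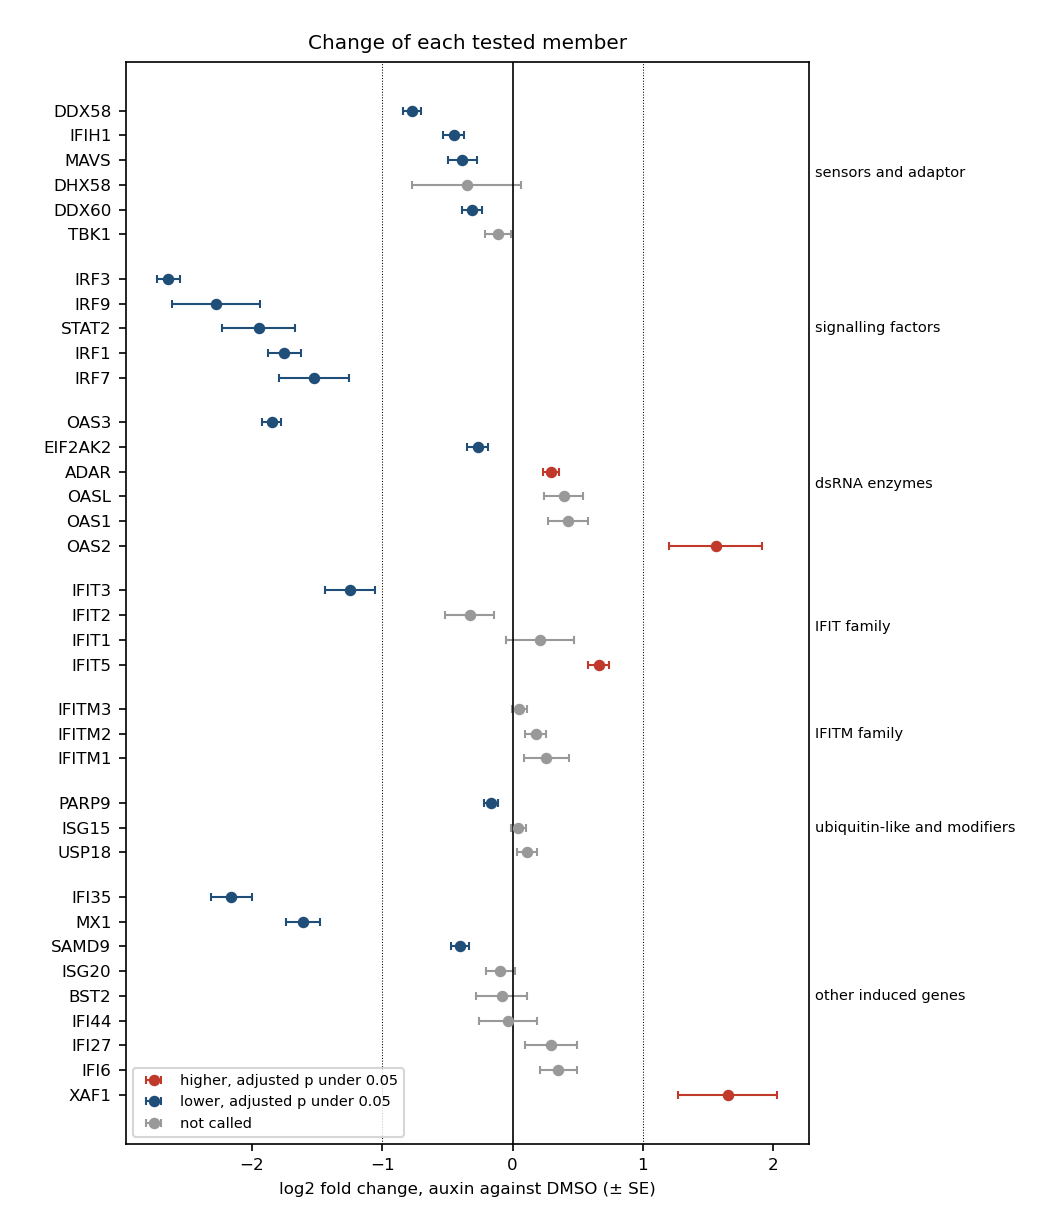
Log2 fold change of each tested gene, auxin against DMSO, with its standard error from the edgeR fit, grouped by role. Blue points are genes called lower, red points genes called higher and grey points genes not called, and dotted lines mark 2-fold changes; the 5 signalling factors lie between -2.64 and -1.53.

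The IFIT genes sit side by side on chromosome 10 and encode proteins that bind foreign or unmodified RNA ends. Of the 4, 1 fell and 1 rose, near the shares of all genes. IFIT3 (chr10:89327894-89340971, plus strand, ENSG00000119917.13) stabilises IFIT1 in a complex. It was at 2.12, 2.84 and 3.17 CPM in DMSO libraries and at 0.955, 1.27 and 1.21 CPM in auxin libraries. The groups did not overlap, and the log2 fold change was -1.25 (SE 0.19, adjusted p 0.00141).

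IFIT5, the family member with the most RNA per length here, rose from 62.0 ± 4.4 to 98.2 ± 7.7 CPM (± SD, n = 3 per group), a log2 change of 0.66 (SE 0.08, adjusted p 0.000448). Its adjusted p was 0.0599 with limma-trend on log2(TPM + 1). IFIT1 was at 1.70 ± 0.48 and 1.96 ± 0.50 CPM (± SD, n = 3 per group), a difference smaller than the spread (log2 fold change 0.21, SE 0.26, adjusted p 0.537). IFIT2, described as promoting apoptosis, was at 2.07 ± 0.39 and 1.65 ± 0.26 CPM (± SD, n = 3 per group; log2 fold change -0.33, SE 0.19, adjusted p 0.180), and the block on replicate number gave an adjusted p of 0.0177. IFIT1, IFIT2 and IFIT3 lie within the span of LIPA on the opposite strand, whose log2 fold change was 0.42 at a mean of 61.2 CPM.

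None of the 3 IFITM genes, which encode membrane proteins that block viral entry, was called by edgeR as fitted here or by the DESeq2 Wald test, and their unadjusted p-values were 0.182 for IFITM1, 0.0595 for IFITM2 and 0.409 for IFITM3. IFITM3 was at 166 ± 5 CPM in DMSO libraries and 172 ± 8 CPM in auxin libraries, IFITM2 at 54.5 ± 3.4 and 61.5 ± 5.0 CPM, and IFITM1 at 0.384 ± 0.064 and 0.460 ± 0.015 CPM (± SD, n = 3 per group). IFITM2 was called higher with the block on replicate number (adjusted p 0.0151 at a log2 change of 0.17), on replicates 2 and 3 alone (0.0386), with upper-quartile factors (0.0250) and without auxin replicate 2 (0.0420). The family is near-identical in sequence and IFITM1 shares all of its 1767 bases with the IFITM2 entry. The split of reads among these genes thus rests on the model of the authors and is least certain for IFITM1. The posterior SD reached 5.81% of the IFITM1 count, 0.0595% of the IFITM2 count and 0.0152% of the IFITM3 count.

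ISG15 is joined to target proteins in the same manner as ubiquitin, and USP18 removes it and dampens receptor signalling. ISG15 was at 27.4 ± 0.6 CPM in DMSO libraries and 28.3 ± 0.8 CPM in auxin libraries (± SD, n = 3 per group), with overlapping groups and a log2 change of 0.05 (SE 0.06, adjusted p 0.538). USP18 was at 8.07 ± 0.32 and 8.72 ± 0.18 CPM (± SD, n = 3 per group), higher without overlap of the groups but not called (log2 fold change 0.11, SE 0.08, adjusted p 0.272). The signs of ISG15, USP18 and IFITM3 turned on the TPM scale, where all 3 were uncalled, whereas with upper-quartile factors all 3 were called higher (adjusted p 0.0439, 0.0377 and 0.0486).

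PARP9, an ADP-ribosyltransferase gene whose product pairs with the ubiquitin ligase DTX3L, was at 28.4 ± 0.5 and 25.4 ± 0.2 CPM (± SD, n = 3 per group). Its log2 fold change was -0.17 (SE 0.05, adjusted p 0.0361). That call was the least stable on the list: it was lost in 10 of 15 alternatives, among them each of the 6 in which 1 library was left out (adjusted p 0.0565 to 0.113).

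Of the 11 other induced genes, 9 were tested. Of these, 3 were lower and 1 was higher (33.3% and 11.1%), beside 26.9% and 25.4% of all genes. IFI35 encodes a partner of NMI and lies at chr17:43006725-43014456 (plus strand, ENSG00000068079.7). It was at 2.53, 2.33 and 2.25 CPM in DMSO libraries and at 0.624, 0.460 and 0.501 CPM in auxin libraries. The auxin libraries held 22.4% of the DMSO level, and the log2 fold change of -2.16 (SE 0.16, adjusted p 4.01e-05) was exceeded on the list only by IRF3 and IRF9.

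MX1 encodes the MxA GTPase, which traps viral ribonucleoproteins. It fell from 1.09 ± 0.04 to 0.356 ± 0.012 CPM (± SD, n = 3 per group), a log2 change of -1.61 (SE 0.13, adjusted p 7.23e-05). SAMD9, a restriction factor for poxviruses, fell from 59.5 ± 3.6 to 45.0 ± 2.7 CPM (± SD, n = 3 per group), a log2 change of -0.40 (SE 0.07, adjusted p 0.00261) whose adjusted p was 0.0921 with limma-trend on log2(TPM + 1). XAF1, which encodes a proapoptotic partner of XIAP, had a log2 change of 1.65 (SE 0.38, adjusted p 0.00924) at 0.0170 ± 0.0024 CPM in DMSO libraries and 0.0559 ± 0.0181 CPM in auxin libraries (± SD, n = 3 per group), levels as close to the detection limit as those of OAS2, and the call was lost on the TPM scale.

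The remaining 5 tested genes were not called. IFI6, a mitochondrial and endoplasmic reticulum protein gene, was at 1.79 ± 0.14 and 2.29 ± 0.31 CPM (± SD, n = 3 per group; log2 fold change 0.35, SE 0.14, adjusted p 0.0743), with an adjusted p of 0.0166 under the block on replicate number. IFI27 was at 0.539 ± 0.072 and 0.660 ± 0.136 CPM, IFI44 at 0.730 ± 0.152 and 0.712 ± 0.152 CPM, the exonuclease gene ISG20 at 2.65 ± 0.14 and 2.48 ± 0.17 CPM, and BST2, which encodes the virion-retaining protein tetherin, at 0.201 ± 0.012 and 0.189 ± 0.025 CPM (± SD, n = 3 per group). For these 4 the log2 fold change lay between -0.09 and 0.30 and the groups overlapped. IFI44L and MX2 were not tested: IFI44L had 0 counts in 5 libraries and 2 counts in auxin replicate 1, and MX2 had 1 to 3 counts in the DMSO libraries and 2, 0 and 0 after auxin.

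At the level of transcripts, most changes of the listed genes were decreases. Of 103 of their transcripts tested, 30 were lower and 4 higher, beside 16.0% lower and 13.2% higher among all 66131 transcripts tested. Of the 103, 70 were coding, with 23 lower and 4 higher, beside 21.3% and 15.5% of all coding transcripts tested. Of the 23 lower coding transcripts, 15 belonged to the 9 genes lower by at least 2-fold, so the counts partly repeat the gene calls. The small number of increases was not stable: it was 10 with the replicate number as a block, 1 without DMSO replicate 2 or auxin replicate 2, and 2 without DMSO replicate 3. Coding transcripts of the 9 genes that fell by at least 2-fold were lower in 15 of 18 cases and higher in 2, with a median log2 fold change of -2.40. Since these genes were picked for falling, the measure to set beside it is that of all genes lower by at least 2-fold. There, 77.5% of 5157 coding transcripts were lower, with a median of -1.84. Retained-intron transcripts of the 9 genes, which keep an intron, were lower in 3 of 13 cases, with a median of -0.78. In all genes lower by at least 2-fold, 24.8% of 3063 were lower, with a median of -0.36. Both counts are near those shares, while both medians lay below those of that background, which was not tested. Transcripts of 1 gene share exons, so their split rests on the model of the authors, and shares below are of the TPM of the gene.

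The transcripts of IRF3 changed unequally. The coding IRF3-203, with 8 exons, made up 9.93%, 14.0% and 15.6% of the gene in DMSO and 0%, 2.04% and 0% after auxin. Its log2 fold change was -7.46 (SE 0.73, adjusted p 0.000291), a fitted value that depends on the prior count where libraries are at 0. IRF3-215, a coding entry with 5 exons, went from 3.57%, 3.28% and 4.18% to 38.6%, 45.3% and 29.7%, and rose by 0.78 on the log2 scale (SE 0.22, adjusted p 0.0298) while the gene as a whole fell. The processed transcript IRF3-224 fell by 3.59 on the log2 scale (adjusted p 0.000956) and the retained-intron IRF3-210 by 4.63 (adjusted p 0.000917). IRF3-218, another retained-intron entry, had a share of 3.02% ± 1.03 in DMSO and 11.1% ± 1.9 after auxin (± SD, n = 3 per group) and was not called (log2 fold change -0.76, SE 0.37, adjusted p 0.172).

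STAT2 had a smaller share of coding transcripts after auxin. The full set of 24 exons, STAT2-201, took 22.0%, 22.7% and 26.1% of the gene in DMSO and 0%, 3.03% and 6.28% after auxin, and its log2 fold change was -4.55 (SE 0.93, adjusted p 0.00864). STAT2-202, coding with 16 exons, had -2.71 (adjusted p 0.0180), and the processed transcript STAT2-207 had -1.66 (adjusted p 0.00761). All coding transcripts of STAT2 together took 37.9% ± 3.3 in DMSO and 6.65% ± 2.28 after auxin (± SD, n = 3 per group). Across the 9 genes the coding share was lower after auxin in 7, with a median difference of -8.71 percentage points. Among all 2237 protein-coding genes that were lower by at least 2-fold it was lower in 70.3%, with a median of -5.55 points, so the listed genes lie near that background. In IRF3 the coding share was higher instead, at 43.2% ± 10.3 in DMSO and 62.5% ± 6.9 after auxin (± SD, n = 3 per group).

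OAS3 kept its main transcript but with a smaller share. OAS3-201, with 16 exons, took 88.8%, 90.5% and 91.9% in DMSO and 68.0%, 70.3% and 76.5% after auxin, with a log2 change of -1.91 (SE 0.09, adjusted p 1.24e-05). The 3-exon coding entry OAS3-205 took 4.96%, 4.49% and 3.79% in DMSO and 23.2%, 22.6% and 18.3% after auxin, and rose by 0.70 on the log2 scale (SE 0.18, adjusted p 0.0232). In neither transcript did the shares of the groups overlap.

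The coding transcripts of IRF1 fell unequally. IRF1-202 fell by 2.65 and IRF1-203 by 2.27 on the log2 scale (adjusted p 0.000409 and 0.000741), and IRF1-201 fell by 1.17 (adjusted p 0.00621), so that the mean share of IRF1-201 went from 11.4% ± 1.8 to 21.0% ± 7.8 (± SD, n = 3 per group). IRF9 was measured mostly as the 2-exon retained-intron entry IRF9-208, at 57.7% ± 0.5 of the gene in DMSO and 36.9% ± 9.2 after auxin (± SD, n = 3 per group), which fell by 3.00 (SE 0.26, adjusted p 0.000162). IRF7-205 had a log2 change of -2.79, IFIT3-202 of -1.42, IFI35-203 of -2.52, IFI35-204 of -2.20 and MX1-203 of -1.66, all coding and all called lower (adjusted p 0.000905 to 0.00457).

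**Figure D3:**
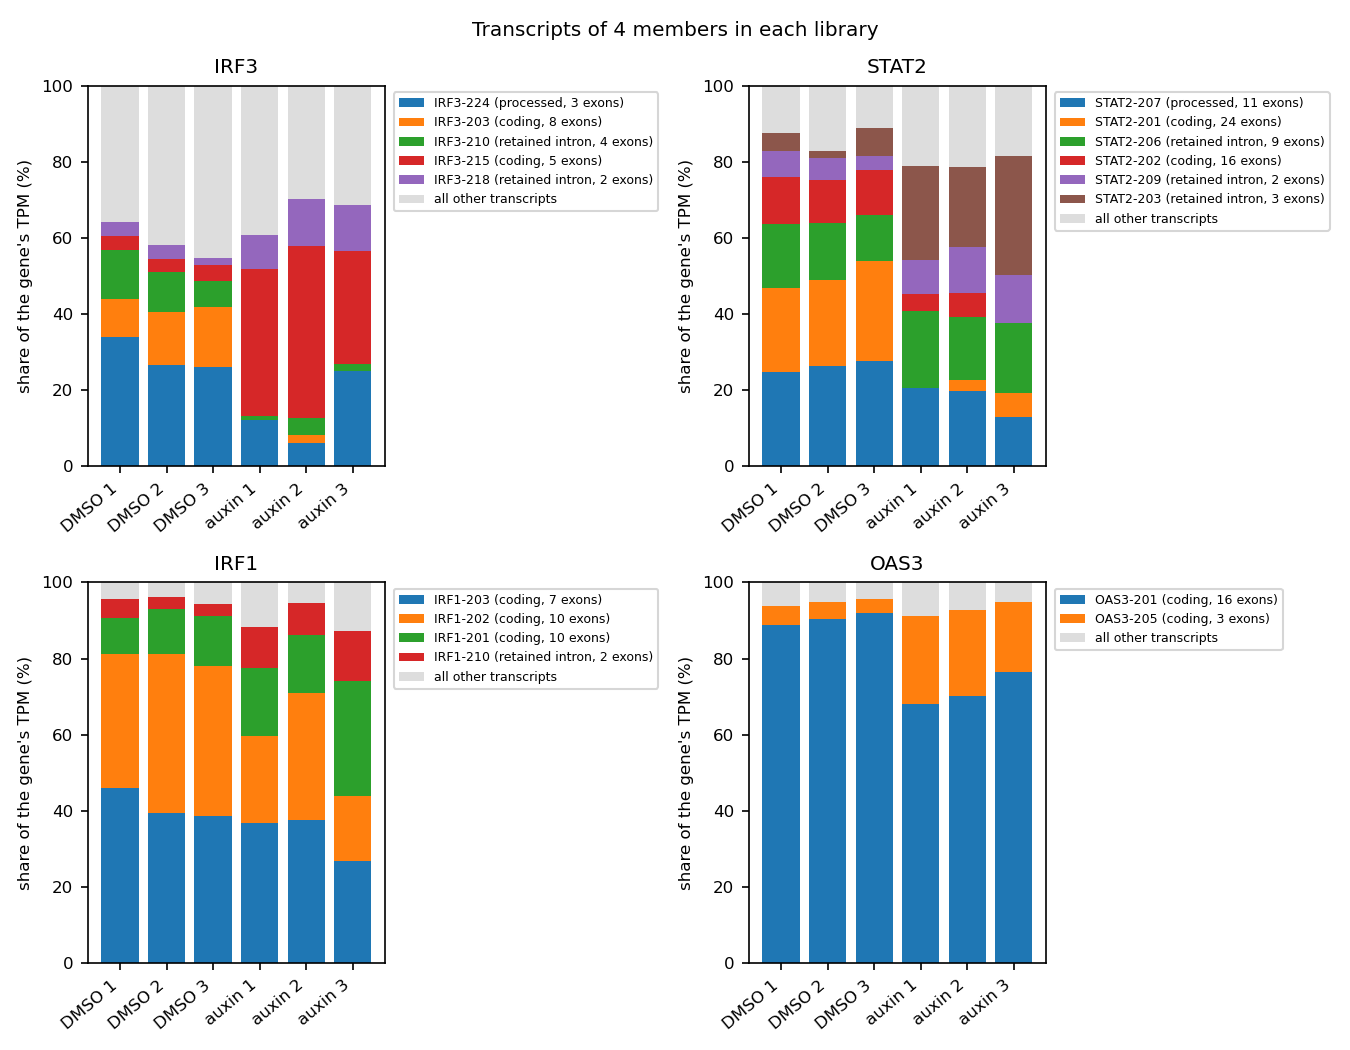
Share of the TPM of IRF3, STAT2, IRF1 and OAS3 taken by each transcript with at least 10% of the gene in either group, as stacked bars from 0 to 100% for the 3 DMSO and 3 auxin libraries, with all other transcripts in grey. IRF3-215 goes from at most 4.18% to at least 29.7%, and STAT2-201 from at least 22.0% to at most 6.28%.

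Among genes with smaller changes, the 2-exon coding entry IFIH1-202 fell by 1.27 (SE 0.21, adjusted p 0.00353), more than the gene as a whole, and PARP9-202 by 0.77 (SE 0.09, adjusted p 0.000759). DDX58-202, MAVS-202, SAMD9-201 and DDX60-201, the main transcripts of their genes, had log2 fold changes of -0.79, -0.39, -0.36 and -0.30 (adjusted p 0.0013, 0.0172, 0.0294 and 0.0486), and EIF2AK2-203 had -0.71 (adjusted p 0.0111). IFIT5 has a single transcript, IFIT5-201, which rose by 0.67 (SE 0.11, adjusted p 0.00298). ADAR-201 and ADAR-216, the main entries of ADAR, were not called, at 0.40 (SE 0.16, adjusted p 0.0990) and 0.26 (SE 0.14, adjusted p 0.234). The rise of ADAR-208, at 8.06% of the gene in DMSO, was called (log2 fold change 0.44, SE 0.09, adjusted p 0.0105). OAS1 had too few reads for a stable split: OAS1-207 ranged from 0% to 44.1% among the DMSO libraries and from 0% to 72.1% among the auxin libraries. OAS1-201 and OAS1-203 were not called (adjusted p 0.417 and 0.369), and OAS1-202 and OAS1-210 were below the filter.

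The 9 genes that fell by at least 2-fold have shorter annotated introns, on the median, than the other genes of the list. In the longest coding transcript of each gene, their median intron length, averaged within a gene, was 649 bases, against 2698 bases in the other 27 tested genes of the list, 3090 bases in all tested genes and 1024 bases in all genes lower by at least 2-fold. Their median span was 9.19 kb against 19.8, 27.5 and 14.2 kb in the same sets, and their median GC content was 54.3% against 48.2%, 49.3% and 59.6%. The 9 genes differ among themselves, and IFIT3 has 2 exons and an intron of 10582 bases. These are descriptions of annotated structures, and no test was made.

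ISRE cores were found among lower, higher and uncalled genes. In the windows described above, a core was present in 7 of the 14 matched genes that were lower, in 3 of the 7 lower by at least 2-fold, in 1 of the 3 higher (IFIT5, with 3 cores) and in 9 of the 11 tested but not called. PARP9, which was called lower, has a core at its other RefSeq start, which is not counted here. GAS cores were present in 4 of the 14 lower genes (IRF1, IRF9, IFI35 and DDX60), in none of the 3 higher and in 4 of the 11 not called. ISG15, IFIT1, IFI6, IFI27, IFITM1, IFITM3 and BST2 each had at least 2 ISRE cores and were not called. A match is only a match of letters, and none was tested for use in these cells.

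**Figure D4:**
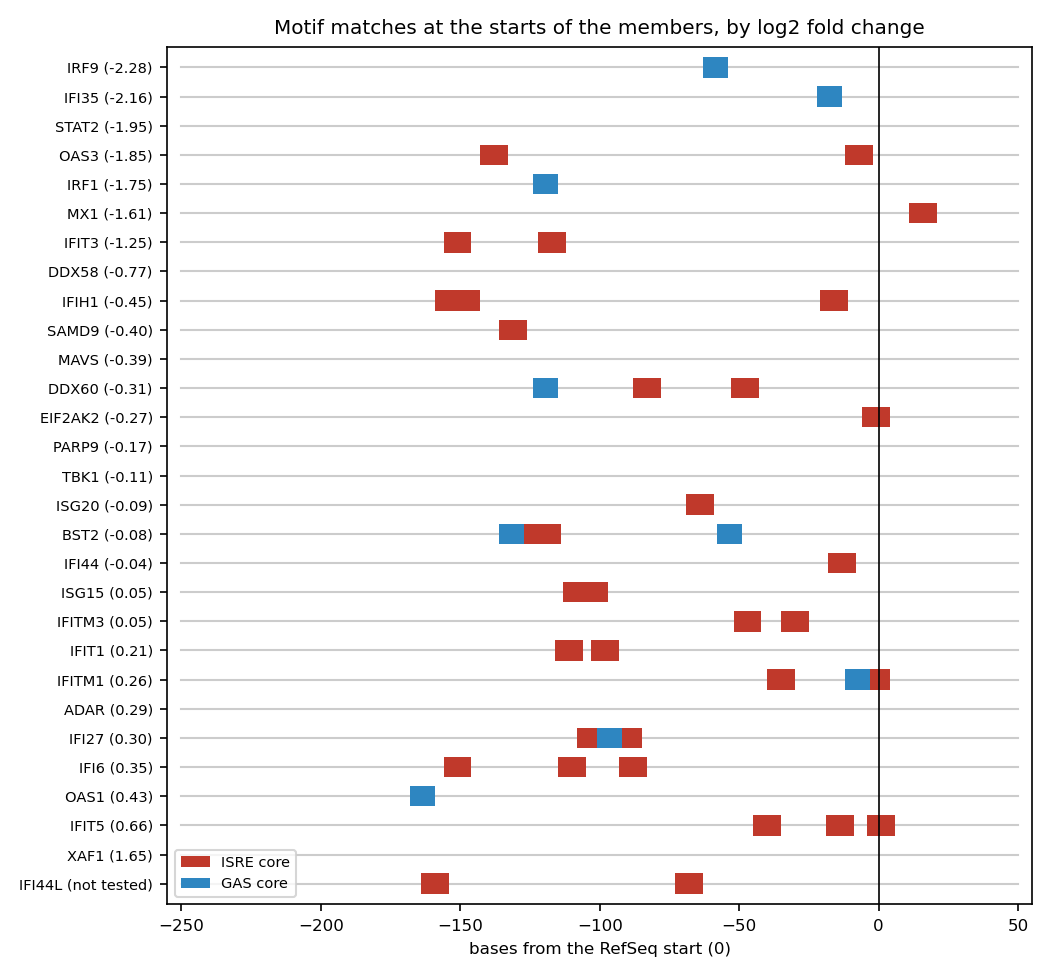
Matches to the ISRE core (red) and the GAS core (blue) in the 300-base windows of 29 genes, with distance in bases from the RefSeq start on the x axis and genes ordered by log2 fold change, given in brackets. Of the 7 genes with decreases of at least 2-fold at the top, 3 have an ISRE match, as do 9 of the 11 tested genes that were not called.

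The rest of the pathway was read from a second list of 74 genes, of which 65 were tested, 20 were higher and 22 lower (edgeR, adjusted p under 0.05), beside the 25.4% and 26.9% of all genes given above, with a median log2 fold change of -0.03. The receptor subunits differed. Those for type I interferon did not pass the test: IFNAR1 was at 109 ± 11 and 108 ± 14 CPM (± SD, n = 3 per group; log2 fold change -0.02, SE 0.11, adjusted p 0.924), and IFNAR2 at 20.1 ± 0.7 and 18.5 ± 1.1 CPM (± SD, n = 3 per group; log2 fold change -0.12, SE 0.07, adjusted p 0.197), with an adjusted p of 0.0249 for IFNAR2 under the block on replicate number. Of the other receptor subunits, IFNLR1 for lambda interferons fell by 0.87 on the log2 scale (SE 0.08, adjusted p 0.000133), its partner IL10RB rose by 0.36 (SE 0.07, adjusted p 0.00301), and IFNGR2 for interferon gamma rose by 0.35 (SE 0.06, adjusted p 0.00233). Both increases were lost on the TPM scale. IFNGR1 was not called (log2 fold change 0.22, SE 0.09, adjusted p 0.0953), with an adjusted p of 0.000332 under the block. Of the receptor kinases, JAK2 fell from 22.0 ± 1.4 to 11.5 ± 0.4 CPM (± SD, n = 3 per group; log2 fold change -0.93, SE 0.08, adjusted p 6.7e-05), a call kept in all 15 alternatives. JAK1 was at 167 ± 8 and 165 ± 10 CPM (± SD, n = 3 per group; log2 fold change -0.02, SE 0.07, adjusted p 0.875). TYK2 fell from 13.1 ± 1.7 to 3.36 ± 1.24 CPM (± SD, n = 3 per group), a log2 change of -1.95 (SE 0.25, adjusted p 0.000600) that had an adjusted p of 0.0557 with limma-trend on log2(TPM + 1).

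SOCS1, which inhibits the receptor kinases, had a log2 change of 0.86 (SE 0.26, adjusted p 0.0296), lost without DMSO replicate 2 (0.104), DMSO replicate 3 (0.0870) or auxin replicate 1 (0.0534) and on the TPM scale (0.333 with limma-trend on log2(TPM + 1)).

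Ubiquitin ligases of RIG-I were among the called increases of the second list. RNF135, also known as Riplet, rose from 10.6 ± 0.3 to 18.3 ± 0.7 CPM (± SD, n = 3 per group; log2 fold change 0.79, SE 0.07, adjusted p 8.96e-05). TRIM25 rose from 204 ± 7 to 333 ± 4 CPM (± SD, n = 3 per group; log2 fold change 0.71, SE 0.06, adjusted p 5.91e-05), and PARP12, which encodes an antiviral ADP-ribosyltransferase, from 37.9 ± 4.4 to 60.4 ± 3.6 CPM (± SD, n = 3 per group; log2 fold change 0.67, SE 0.09, adjusted p 0.0008). All 3 lost the call on the TPM scale, with adjusted p from 0.0856 to 0.241.

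Decreases in the second list included genes of innate signalling. TLR3, the endosomal sensor of double-stranded RNA, fell from 5.89 ± 0.18 to 1.22 ± 0.16 CPM (± SD, n = 3 per group; log2 fold change -2.27, SE 0.13, adjusted p 1.47e-05). IKBKE, which encodes the kinase related to TBK1, fell from 2.63 ± 0.47 to 0.752 ± 0.238 CPM (± SD, n = 3 per group; log2 fold change -1.80, SE 0.25, adjusted p 0.000842), with an adjusted p of 0.110 with limma-trend on log2(TPM + 1). IKBKG, which encodes the NF-kappaB scaffold NEMO, had a log2 change of -2.88 (SE 0.19, adjusted p 2.91e-05), but it has a near-identical pseudogene copy and its count is uncertain.

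Of 3 genes of DNA sensing named here, 1 was lower, 1 higher and 1 not tested. TMEM173, which encodes STING, was at 7.37 ± 0.20 and 5.99 ± 0.43 CPM (± SD, n = 3 per group; log2 fold change -0.30, SE 0.09, adjusted p 0.0272), a call lost without DMSO replicate 1, DMSO replicate 3, auxin replicate 2 or auxin replicate 3 (adjusted p 0.0638 to 0.102), with upper-quartile factors (0.191), with no filter (0.0531) and on the TPM scale (0.160 with limma-trend on log2(TPM + 1)). IFI16, a DNA sensor, was higher at a low level, at 0.0936 ± 0.0235 and 0.255 ± 0.029 CPM (± SD, n = 3 per group; log2 fold change 1.43, SE 0.25, adjusted p 0.00256), a call lost on the TPM scale. CGAS had 1 to 24 counts per library and was not tested. Of the interferon genes on the list, IFNE, which encodes an interferon of epithelia, was higher, with 158, 58 and 49 counts in DMSO libraries and 456, 119 and 121 after auxin (log2 fold change 1.43, SE 0.22, adjusted p 0.00147), a call lost on the TPM scale. The others were near the limit of detection: IFNB1 had 2 counts in DMSO replicate 1, 2 in auxin replicate 2 and 0 in the others, and IFNL1, IFNL2 and IFNL3 had at most 10 counts in any library. CXCL10 and CXCL11, chemokine genes that interferon induces strongly, had at most 17 counts.

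**Figure D5:**
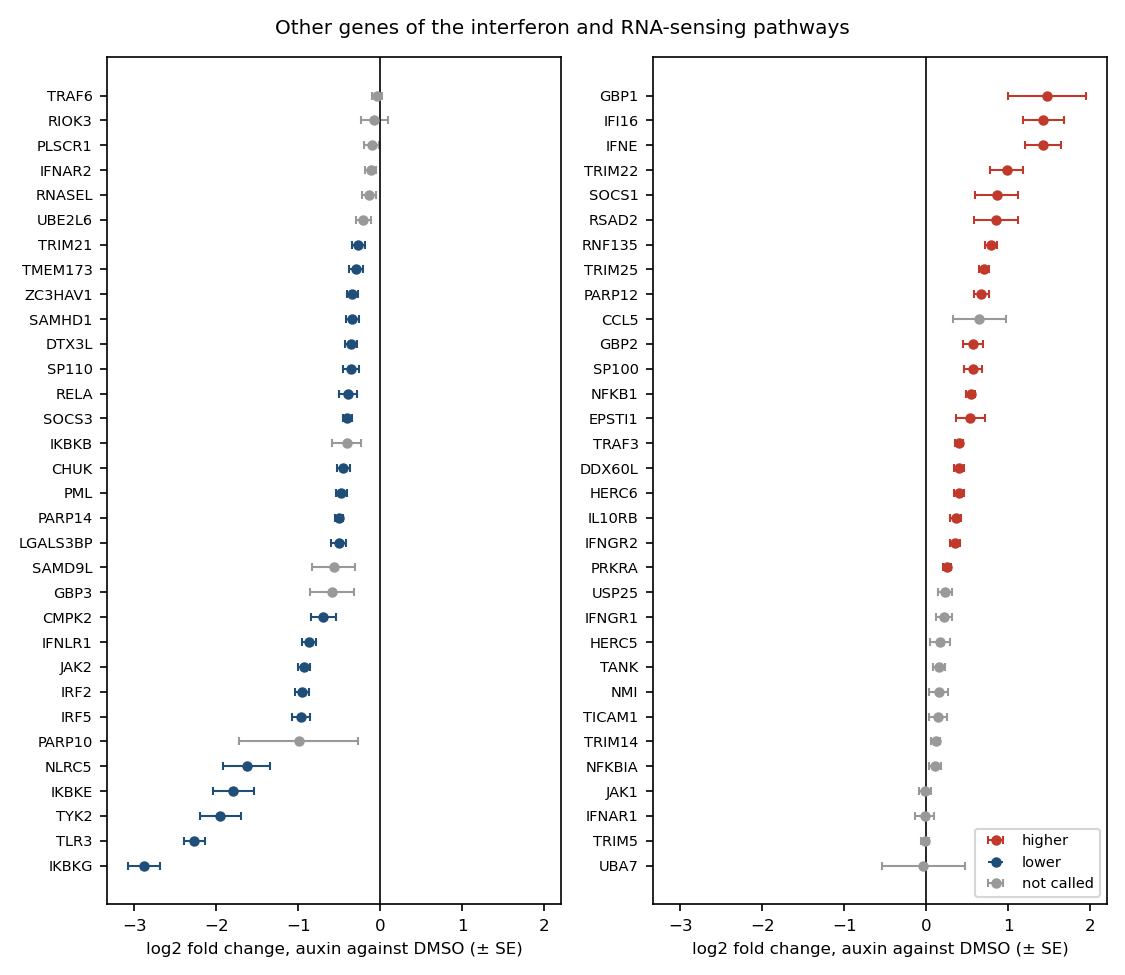
Log2 fold change, auxin against DMSO, with standard error from the edgeR fit, for tested genes of the second list, ordered by fold change over a left and a right panel. Blue marks genes called lower, red genes called higher and grey genes not called. TYK2, TLR3, IKBKE and IKBKG are among the genes below -1.5, and JAK1, IFNAR1 and IFNAR2 are among those within 0.3 of 0.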

How the data were processed

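RNA of HCT116 cells was sequenced in 3 auxin and 3 DMSO libraries. Per the labels' protocols, ribosomal RNA was removed from total RNA, and stranded libraries were read as pairs. The submitters' processing notes name bcl2fastq 2.20, STAR and DESeq2 and the build GRCh38; the order and role of these tools, and any use of the strand in counting, are not given in the sources used here. Per the file headers, the authors deposited for each gene and transcript an expected count (estimated, not normalized), a TPM value and a posterior standard deviation of the count, in the layout of RSEM. All 58780 gene IDs and 206761 transcript IDs matched GENCODE release 29. The 649 numeric IDs, at most 0.00111% of counts, and 97 other IDs at 0 were left out.

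Expected counts were rounded and tested with edgeR 4.0.16 in R 4.3.3 (filterByExpr, TMM, glmQLFit, glmQLFTest) over all genes, with Benjamini-Hochberg adjustment over all 19725 genes tested and calls at 0.05. Standard errors were derived from the F statistic. Transcript counts were first divided by an overdispersion from the posterior SD, and 66131 transcripts were tested. In simulated data with 100 genes changed 2-fold and 100 changed 1.5-fold, the gene test recovered 54% and 18% of them. Of its calls, 7.69% were unchanged genes. The transcript test recovered 26.2% of 2-fold and 76.3% of 4-fold changes, with 6.65% of its calls on unchanged transcripts. Many more genes were called here than were changed in the simulation, and a gene not called is not thereby unchanged. DESeq2 1.42.0, limma 3.58.1, other scalings and filters, the replicate block, replicates 2 and 3 alone and each library left out were alternatives. Deviations from the group means correlated at 0.65, 0.27 and 0.28 between same-numbered libraries. DMSO replicate 3 with auxin replicate 2 (0.31) and DMSO replicate 2 with auxin replicate 3 (0.18) correlated similarly. These values therefore do not settle whether replicates 2 and 3 are paired by number. The main fit had no block. P-values measure the spread between these libraries, and intervals and limits from low counts cover counting error only.

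The genes and lists were chosen with earlier results of these data known, and the groups by role were assigned by hand. Called genes of the list with mean CPM no lower than 1 and a 2-fold change or more, and the sensors DDX58, IFIH1, DHX58, MAVS and EIF2AK2, are given per library and the others by group means. From the second list, JAK1, TYK2, IFNAR1, IFNAR2, TMEM173 and CGAS are named in any case, with the 4 called genes of largest change each way at a mean CPM of at least 1; 1 gene of that list is counted but not reported here; the interferon and CXCL genes, IFI16, JAK2 and the other receptor subunits were added after their values were seen. Transcripts named are those called with at least 10% of the TPM of the gene in either group and those of ADAR, OAS1 and IRF3 at that share; ADAR-208 was added after its value was seen. Where RefSeq lists several starts, the one nearest the annotated 5′ end was used.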

Additional observations from a re-analysis of the deposited data

How the results depend on the processing

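Over 823 single-gene results under 15 alternatives, 703 kept their direction and their side of the threshold, 70 lost the call, 28 gained it and 22 turned direction, all of the last without a call in either fit. With limma-trend on log2(TPM + 0.1), 0 listed genes were higher (1 at an unadjusted p under 0.05) and 9 lower, beside 5.16% and 16.3% of all genes. In the second list, 0 genes were higher (6 unadjusted) and 7 lower. The median log2 fold change of the listed genes was -0.24 in that fit, which shifts the median gene by -0.15. With log2(TPM + 1), 0 listed genes were higher and 9 lower, and 1 gene of the second list was higher and 6 lower, beside 4.92% and 15.0% of all genes. The replicate block gave 8 listed genes higher and 10 of their transcripts higher; among the named genes it changed the calls of OAS1, OASL, IFI6, IFITM2, TBK1, IFIT2, IFNAR2 and IFNGR1 and no other. Upper-quartile factors gave 11 higher and a median of -0.016, beside 0.15 over all genes. A minimum of 10 counts in every library gave a median of -0.22 and 17 transcripts lower. The cause of these differences was not tested.

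With 1 library left out, 4 to 5 listed genes were higher and 12 to 15 lower. In these fits 19.2% to 24.9% of all genes were higher and 22.2% to 27.9% lower. The median of the listed genes was -0.18 to -0.15, and 26 to 31 of their transcripts were lower. Transcripts called higher ranged from 1 to 6; DMSO replicate 2 or auxin replicate 2 left out gave 1, and DMSO replicate 3 left out gave 2. Of the second list, 15 to 19 were higher and 19 to 24 lower.

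Directions turned on log2(TPM + 0.1) and log2(TPM + 1) for IFITM3 (-0.100 and -0.0997), ISG15 (-0.092 and -0.090) and USP18 (-0.042 and -0.036). With upper-quartile factors they turned for TBK1 (0.012), IFI44 (0.087), ISG20 (0.028), BST2 (0.042), JAK1 (0.11), IFNAR1 (0.10) and IFNAR2 (0.0016), and on replicates 2 and 3 alone for IFNAR1 (0.010). With 1 library left out, the log2 fold change ranged from -0.22 to 0.10 for IFI44 (turned without DMSO replicate 3, auxin replicate 1 or auxin replicate 3), from -0.090 to 0.092 for IFNAR1 (DMSO replicate 3 or auxin replicate 1), from -0.052 to 0.038 for JAK1 (auxin replicate 1), from -0.014 to 0.39 for IFIT1 and from -0.16 to 0.0090 for BST2 (both auxin replicate 2). Depth limits OAS2, XAF1 and DHX58 most, at 4 to 65 counts per library among them.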
